A study of Mus musculus with 26 samples.

Results

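The livers of 21 mice given benoxacor at 0.5, 5 or 50 mg/kg were pooled and compared with the livers of 5 mice given 0 mg/kg, and the genes described are those shifted alike at all 3 doses. A gene was counted as shifted alike when its unadjusted p was under 0.05 in each of the 3 comparisons of a dose with 0 mg/kg and the sign was the same in all 3. A gene with the same sign at all 3 doses is common (57.8% of genes tested). This rule held 106 of 14415 genes tested (0.735%), of which 50 were higher at every dose (0.347%) and 56 were lower at every dose (0.388%). The 3 comparisons share the same 5 control mice, so a low or high level in those controls moves all 3 the same way. The values that chose these genes are therefore given as a description and support nothing by themselves.

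Benoxacor is a herbicide safener, a compound added to herbicides to protect the crop. C57BL/6 mice, acclimatised between weeks 4 and 8 of age with their bedding mixed, received it by oral gavage on 3 days in a row, and the liver was collected 24 h after the last gavage. The dosed mice comprised groups of 5, 8 and 8 that received 0.5, 5 and 50 mg/kg, beside the 5 controls, all of the same strain, and the labels name each library as a separate mouse. The labels give neither the sex of the mice nor the composition of the 0 mg/kg gavage.

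Chemicals that reach the liver are sensed by nuclear receptors such as CAR and PXR, which switch on enzymes that oxidise, hydrolyse or conjugate foreign compounds. In plants, safeners are known for raising glutathione S-transferases, the enzymes that detoxify the herbicide. The liver also makes bile acids from cholesterol, sets body iron through the hormone hepcidin and secretes acute phase proteins in inflammation.

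The libraries held 5433074 to 9088626 counts, with a median of 7105531. The mouse numbers form a run from 601 to 616 with 11 dosed and 4 control mice, and a run from 619 to 632 with 10 dosed mice and 1 control. The labels do not say what a run is, and within each run the numbers climb with dose, so that dose and number order cannot be told apart. The Y-linked Ddx3y had 66.4 to 229 CPM, its counts scaled to the library's total, in the 26 libraries. Xist had 0 to 2.44 CPM in them, and both are the levels of male tissue. Of 11 hepatocyte markers tested 10 had a positive fold change, and the summed level of the list was 47020 to 131731 CPM in dosed livers and 51592 to 69821 CPM in control livers. One library at 5 mg/kg, replicate 8, held 911 CPM of Star and 359 CPM of Cyp21a1, genes of steroid synthesis in the adrenal gland. The next highest libraries had 6.11 and 15.1 CPM. Replicates 1 and 2 at 0.5 mg/kg had 2311 and 3233 CPM of the acute phase gene Saa1, against 14.0 to 655 CPM in the other dosed livers and 14.5 to 282 CPM in the controls. In whole tissue, fewer cells of a type and less RNA per cell cannot be told apart.

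No gene passed an adjusted p of 0.05 for any dose against 0 mg/kg (0 of 14415, 0%) in edgeR's quasi-likelihood test, in which the run was a term. The smallest adjusted p was 0.307, shared by Zbtb16, mt-Tl2 and Sel1l3. At an unadjusted p under 0.05 there were 991 genes (6.87%), 490 higher (3.40%) and 501 lower (3.48%). DESeq2 called 9 genes and limma-voom 0. Of the 9, with DESeq2's own fold changes, Akr1d1 (log2 0.65), Hamp (1.07), Chchd3 (0.31) and Igfbp5 (1.43) were higher, and Zbtb16 (-1.25), mt-Tl2 (-1.22), Sel1l3 (-0.51), Pigo (-0.44) and Plcb3 (-0.38) were lower. All but Igfbp5, which binds insulin-like growth factors, are among the 106 genes. Igfbp5 had 2.07 to 53.3 CPM (median 5.95) in dosed livers and 1.12 to 3.33 CPM in control livers. It missed the rule at 0.5 mg/kg (unadjusted p = 0.0707) and at 50 mg/kg (0.0530), and it is named because its values were seen.

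All values below are CPM scaled by the TMM library factors, or log2 fold changes of dosed over control mice with their standard errors, and in this fit to all 26 mice no single gene had an adjusted p under 0.05. The 50 higher genes had a median log2 fold change of 0.55, between 0.28 and 1.99, and the 56 lower genes a median of -0.40, between -1.74 and -0.20, where all genes tested had a median of 0.012.

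**Figure D1:**
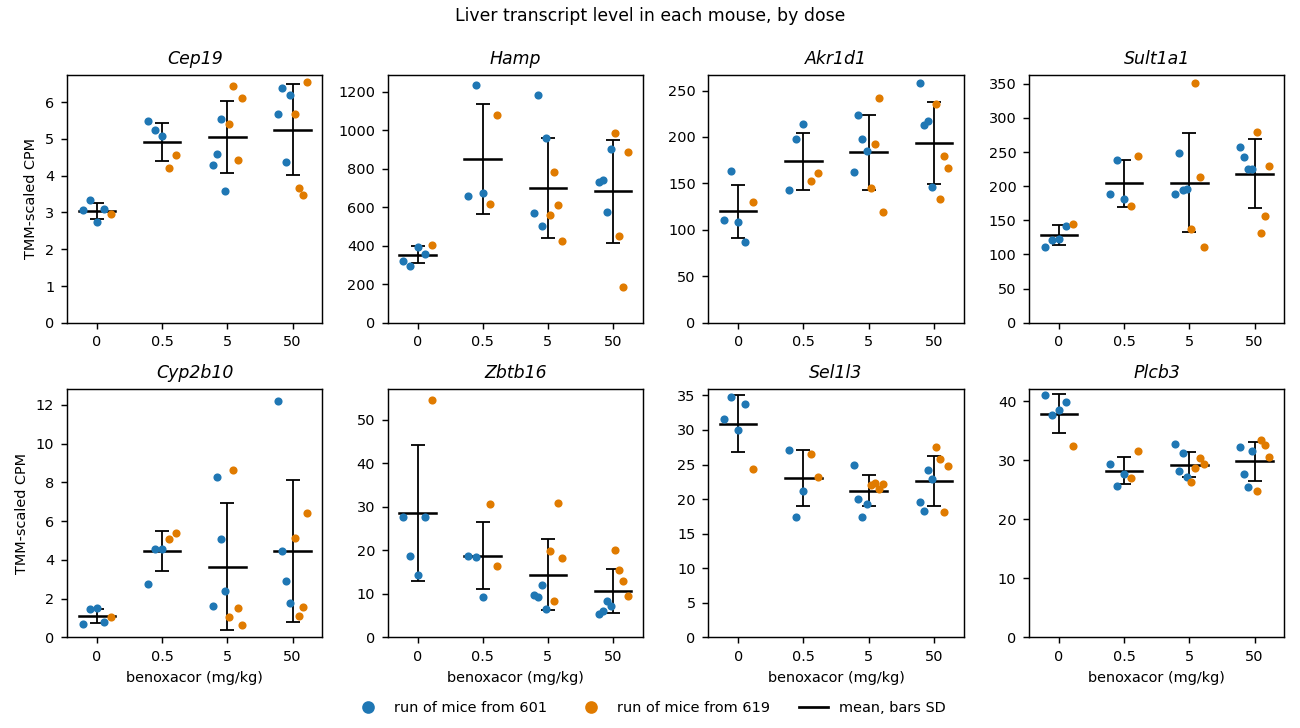
Level of 8 genes shifted alike in each mouse, in TMM-scaled CPM (vertical axes, from 0) by benoxacor dose (mg/kg); points are mice, coloured by run of mouse numbers, lines are means and bars are SD. Every dosed mouse lies above every control for Cep19, while the other genes overlap in 1 or more mice.

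The enzymes that act on foreign compounds were represented by Cyp2b10, Sult1a1, Ces1g and Fmo2, all on the higher side. Cyp2b10 (ENSMUSG00000030483), a P450 widely read as a marker of CAR activity, had 0.622, 4.45 and 12.2 CPM as the lowest, median and highest of the 21 dosed livers. The control livers had 0.700, 1.45, 1.51, 0.805 and 1.03 CPM. The control values all lay low and close together, while the dosed mice spread widely and 19 of 21 exceeded every control of their own run. Its log2 fold change of 1.99 ± 0.57 (adjusted p = 0.583) was the highest among the 50 genes, with 2.11, 1.79 and 2.09 at 0.5, 5 and 50 mg/kg. The mean levels at these doses were 4.47, 3.65 and 4.45 CPM.

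Sult1a1 (ENSMUSG00000030711), a sulfotransferase that conjugates phenols, had 112, 214 and 352 CPM as the lowest, median and highest of the dosed livers. The controls had 111, 121, 123, 142 and 144 CPM. The groups overlapped in 3 dosed mice of the run from 619, and 18 of 21 lay above every control of their run. The log2 fold change was 0.72 ± 0.18 (adjusted p = 0.459), and in the run from 601 alone it was 0.79 with an adjusted p of 0.0320, the same adjusted p as Igfbp5 (1.70) and Cyp2c54 (0.93), which makes 3 genes called there (0.0208%). Over the other alternatives the adjusted p of Sult1a1 lay between 0.0715 and 0.972.

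Ces1g (ENSMUSG00000057074), a carboxylesterase that cleaves esters and amides, had 142, 223 and 276 CPM as the lowest, median and highest of the dosed livers. Its controls had 129, 171, 136, 145 and 147 CPM. Most dosed mice stood above the controls, 18 of 21 within their run, and the log2 fold changes were nearly equal at 0.56, 0.56 and 0.64 from low to high dose. The Ces1 genes are close copies in 1 cluster, so that reads may be split between them. Fmo2 (ENSMUSG00000040170), a flavin monooxygenase that oxidises sulfur and nitrogen compounds, had 7.43, 18.5 and 40.8 CPM in dosed livers. Its controls had 14.8, 13.03, 14.7, 6.71 and 7.39 CPM. Compared over both runs the groups overlapped, but 20 of 21 dosed mice exceeded the controls of their own run, and the log2 fold change was 0.97 ± 0.26.

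Akr1d1 and Hamp stood for bile acid synthesis and for iron control. Akr1d1 (ENSMUSG00000038641), the 5-beta-reductase of bile acid and steroid synthesis, had 120, 185 and 259 CPM as the lowest, median and highest of the dosed livers. The controls had 110, 164, 108, 86.8 and 130 CPM. Only part of the dosed range overlapped the controls, with 17 of 21 above those of their run, and the log2 fold changes were 0.56, 0.65 and 0.73 from low to high dose. Hamp (ENSMUSG00000050440), the gene of hepcidin, which holds iron inside cells, had 185, 674 and 1238 CPM in dosed livers. The controls had 322, 298, 395, 358 and 402 CPM. All dosed mice but 1 at 50 mg/kg, replicate 7, stood above every control of their run. The fitted difference was 2.12-fold (log2 1.08 ± 0.27, adjusted p = 0.459), and the log2 fold changes were 1.30, 1.02 and 0.99 from low to high dose. Hamp has a close copy, Hamp2, and reads may be split between them.

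The promoters of these 2 genes are shown because they are the bile acid and iron genes among those that DESeq2 also called. Each sequence is RefSeq's for GRCm38.p6, 250 bases before to 50 after the start, read 5′ to 3′ on the gene's strand: chr7:30943980-30944279 on the minus strand for Hamp and chr6:37529923-37530222 on the plus strand for Akr1d1. Capitals mark every match of 5 short motifs on either strand. The STAT site was searched as TTCNNNGAA. The hexamer of nuclear receptors was searched as AGGTCA. The TATA box was searched as TATAAA. The hexamer of the glucocorticoid receptor was searched as TGTTCT, and that of the BMP pathway as GGCGCC.
Hamp: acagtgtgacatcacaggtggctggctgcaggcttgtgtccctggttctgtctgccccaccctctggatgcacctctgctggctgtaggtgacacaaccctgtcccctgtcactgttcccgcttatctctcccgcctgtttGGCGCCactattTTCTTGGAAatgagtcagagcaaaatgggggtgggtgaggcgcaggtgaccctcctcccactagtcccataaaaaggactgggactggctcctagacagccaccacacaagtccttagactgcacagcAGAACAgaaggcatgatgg
Akr1d1: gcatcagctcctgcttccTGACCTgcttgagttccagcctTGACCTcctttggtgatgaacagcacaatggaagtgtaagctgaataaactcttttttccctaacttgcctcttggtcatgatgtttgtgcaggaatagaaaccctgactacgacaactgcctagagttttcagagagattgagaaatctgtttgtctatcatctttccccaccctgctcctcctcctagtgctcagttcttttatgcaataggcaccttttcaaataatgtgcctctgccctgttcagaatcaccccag
The Hamp promoter held GGCGCC at -109, a STAT match at -97 and the reverse of TGTTCT at 32, counted from the start. The Akr1d1 promoter held the reverse of AGGTCA at -232 and at -210. No 2 motifs overlapped in these sequences. Of the shifted genes, 37 of 50 higher and 34 of 56 lower ones had a promoter in the table, against 10163 of all genes tested. The STAT site was in 8.11% of the higher, 5.88% of the lower and 6.96% of all these promoters, and AGGTCA was in 10.8%, 8.82% and 12.8%. TATAAA was in 8.11%, 5.88% and 7.34%, TGTTCT in 18.9%, 5.88% and 12.7%, and GGCGCC in 16.2%, 20.6% and 20.8%. A match is a description of these letters and not of binding.

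Other higher genes had smaller or less familiar roles in this tissue. Cep19 (ENSMUSG00000035790), a centrosome protein at the base of the cilium, had 3.48, 5.25 and 6.56 CPM as the lowest, median and highest of the dosed livers. The controls had 3.08, 3.33, 2.74, 3.08 and 2.96 CPM. Cep19 was the 1 gene of all those tested in which every dosed mouse exceeded every control (0.00694%), with log2 fold changes of 0.69, 0.74 and 0.79 and an adjusted p of 0.343 over all doses. Counted within runs, 2 genes had every dosed mouse above the controls of their run (0.0139%), Cep19 and Chchd3, which shapes the inner membrane of mitochondria. Chchd3 had 88.0, 99.5 and 120 CPM in dosed livers, and 83.7, 71.7, 78.8, 81.0 and 90.2 CPM in control livers. Its log2 fold change was 0.32 ± 0.09. In the other direction 1 gene had every dosed mouse below the controls of its run (0.00694%), Ube2o, a ubiquitin-conjugating enzyme, with 11.7 to 16.7 CPM in dosed livers and 15.8 to 18.1 CPM in control livers. Ube2o, named because its values were seen, is not among the 56, since its unadjusted p at 0.5 mg/kg was 0.0551.

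Prps1, which makes the sugar phosphate that nucleotide synthesis starts from, had 23.6, 31.0 and 42.0 CPM in dosed livers and 24.8, 24.0, 26.8, 22.8 and 19.5 CPM in control livers. Serpina3m, a secreted protease inhibitor of the acute phase, had 164, 326 and 913 CPM in dosed livers and 192, 150, 240, 141 and 268 CPM in control livers. Its highest value came from a mouse at 0.5 mg/kg, replicate 2, and its close Serpina3 copies may share its reads. Kdsr, an enzyme of sphingolipid synthesis named because its values were seen, had 19.0 to 32.5 CPM in dosed livers and 17.5 to 24.0 CPM in control livers. The transcripts Gm5475, Gm14097, 1700028E10Rik and Gm19950 had log2 fold changes of 1.35, 0.93, 0.59 and 0.62. Of these, Gm14097 and Gm19950 are annotated as antisense, and with the strand setting not given their reads cannot be told apart from those of the genes they overlap. In the run from 619, 1700028E10Rik had -0.11 and Gm19950 0.03, and Gm5475 had 2.79.

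**Figure D2:**
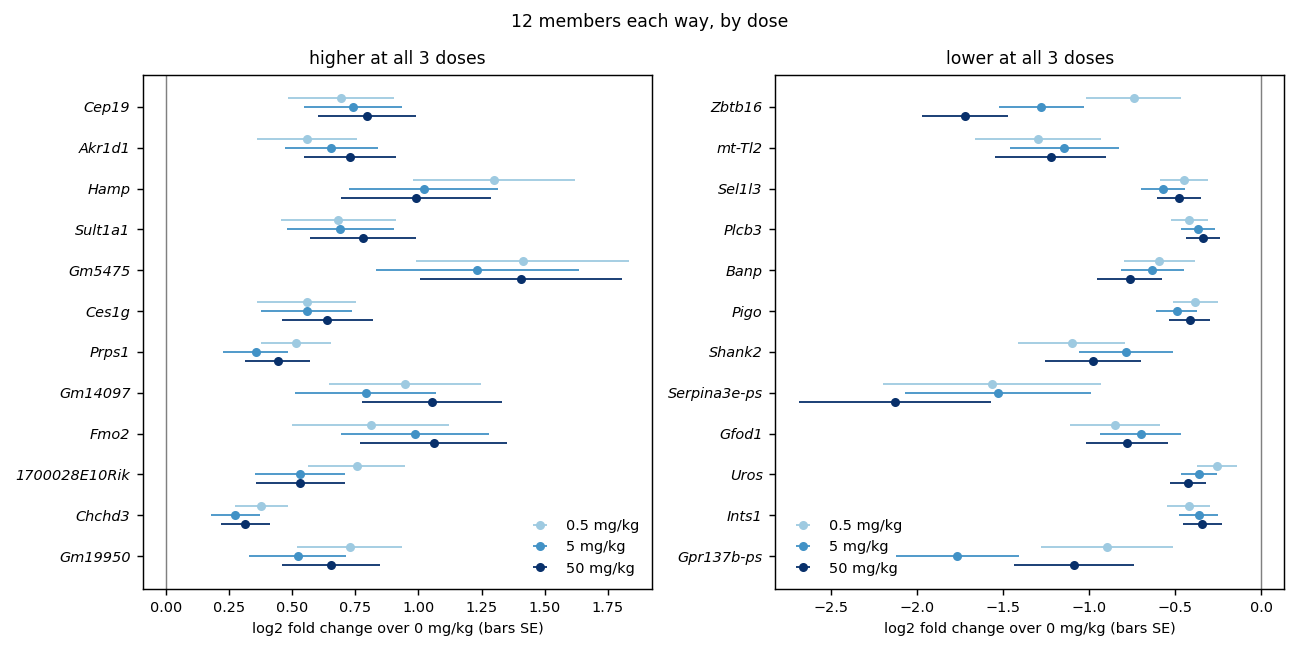
Log2 fold change over 0 mg/kg (horizontal axis) of the 12 higher and the 12 lower genes named by smallest p, at 0.5, 5 and 50 mg/kg from light to dark; points are estimates, bars are SE, and the grey line is no difference. Most genes have overlapping bars at the 3 doses, while Zbtb16 runs from -0.74 at 0.5 to -1.72 at 50 mg/kg.

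On the lower side, Zbtb16 (ENSMUSG00000066687), a zinc finger repressor of transcription, had 5.40, 12.1 and 30.9 CPM as the lowest, median and highest of the dosed livers. The controls had 27.6, 18.7, 14.3, 27.6 and 54.5 CPM, and 19 of 21 dosed mice lay below every control of their run. The log2 fold change was -1.25 ± 0.25 (adjusted p = 0.307). Counted with equal weight for each dose it was -1.25 with an adjusted p of 0.0277, and without replicates 1 and 2 at 0.5 mg/kg it was -1.46 with an adjusted p of 0.00617. Over all alternatives the adjusted p of Zbtb16 lay between 0.00617 and 0.875.

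Several lower genes encode proteins of membranes and signalling. Plcb3, a phospholipase C that acts below Gq-coupled receptors, had 24.8, 29.4 and 33.5 CPM in dosed livers and 41.0, 37.6, 38.6, 39.8 and 32.4 CPM in control livers. The control of the run from 619 lay within the dosed range, and the other 4 controls lay above every dosed mouse. Sel1l3 had 17.4, 22.2 and 27.5 CPM in dosed livers, and 31.6, 34.8, 30.1, 33.8 and 24.4 CPM in control livers, the same picture with the same mouse inside the dosed range. The 2 runs, from 601 and from 619, had log2 fold changes of -0.64 and -0.06 for Sel1l3, and of -0.45 and -0.14 for Plcb3. Pigo, an enzyme of GPI anchor synthesis, had 13.4, 17.7 and 23.2 CPM in dosed livers and 24.2, 24.6, 20.2, 23.3 and 22.8 CPM in control livers, with 19 of 21 below the controls of their run. Shank2, a scaffold protein best known from synapses, had a log2 fold change of -0.93 ± 0.23, with 20 of 21 dosed mice below the controls of their run. Gfod1 had -0.77 ± 0.20, also with 20 of 21 below.

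Uros and Ppox, 2 enzymes of heme synthesis, were on the lower side, but the pathway had no list of its own here. Alas2, an enzyme of the same pathway among the erythroid markers, had 43.0 to 146 CPM in dosed livers. The control livers had 67.0 to 96.0 CPM of Alas2. Uros (ENSMUSG00000030979) had 18.5, 22.9 and 29.3 CPM as the lowest, median and highest of the dosed livers, and 28.7, 28.4, 29.4, 24.4 and 36.1 CPM in the control livers. Its log2 fold changes were -0.25, -0.36 and -0.43 from low to high dose, and 19 of 21 dosed mice lay below the controls of their run. Ppox, named because its values were seen, had 28.8 to 41.3 CPM in dosed livers and 34.6 to 47.6 CPM in control livers, with a log2 fold change of -0.30 ± 0.09.

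Other lower genes act in the nucleus or encode aminoacyl-tRNA synthetases. Banp, a nuclear protein that binds DNA, had 5.11, 7.96 and 10.8 CPM in dosed livers and 19.7, 11.4, 11.7, 10.5 and 9.61 CPM in control livers. Its highest control, replicate 1, stood far above the others, and the log2 fold change of -0.67 ± 0.16 was -0.45 without that mouse. Ints1, a subunit of the Integrator complex that cuts nascent RNA, had 25.4, 29.9 and 39.7 CPM in dosed livers and 45.5, 31.9, 34.2, 43.9 and 37.0 CPM in control livers. The following were picked for their roles after their values were seen. Setd1b, a histone H3 methyltransferase, had a log2 fold change of -0.41, and Ep400 and Trrap, subunits of the same histone acetylation and remodelling complex, had -0.32 and -0.34. Sap130 of the Sin3 repressor complex had -0.44, and Cpsf1 and Sympk, which act in cleaving the end of messenger RNA, had -0.32 and -0.26. The aminoacyl-tRNA synthetases Mars, Vars and Cars2 had -0.29, -0.29 and -0.38, where Vars had -0.19 without control replicate 3. In the run from 619 Mars had 0.10 and Vars -0.05. With offsets for GC content and length, Ints1 had -0.27, Setd1b -0.31, Ep400 -0.24, Trrap -0.24, Cpsf1 -0.27, Sympk -0.21 and Vars -0.21. Banp (-0.64), Sap130 (-0.43) and Mars (-0.28) changed little with the offsets, and Cars2 had -0.42.

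Vwf (ENSMUSG00000001930), the von Willebrand factor of endothelial cells, had 4.58, 9.14 and 13.3 CPM in dosed livers and 12.6, 15.5, 8.92, 15.2 and 18.0 CPM in control livers. The groups overlapped, with 14 of 21 dosed mice below the controls of their run. Its log2 fold change was -0.60 ± 0.18, and the 16 endothelial markers as a list had 10 negative values with a median of -0.064. The summed level of those markers was 360 to 523 CPM in dosed livers and 438 to 546 CPM in control livers, none was at 0 in all libraries, and their part in the Vwf value was not tested. Agrn and Nid2, proteins of the basement membrane, had log2 fold changes of -0.43 and -0.62 (-0.34 and -0.58 with offsets for GC content and length). Both were picked after their values were seen. Cyp26c1, which clears retinoic acid and was picked in the same way, had 0.104 to 4.79 CPM in dosed livers and 1.51 to 6.37 CPM in control livers, with a log2 fold change of -1.40 ± 0.43.

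The lower transcripts mt-Tl2, Serpina3e-ps and Gpr137b-ps varied widely among the controls. The mitochondrial leucine tRNA mt-Tl2 had 8.90, 22.9 and 32.8 CPM in dosed livers and 65.0, 42.6, 23.7, 37.4 and 75.2 CPM in control livers. Its log2 fold change of -1.21 ± 0.25 was -0.81 without control replicate 5 and -0.76 with offsets for GC content and length. That control, the highest for mt-Tl2, had 8.38% of its reads on mitochondrial genes, against 3.83% to 7.29% in the dosed livers of its run, and the part of this share in the mt-Tl2 value was not tested. Serpina3e-ps, a pseudogene of the Serpina3 family, had 0.594, 2.07 and 5.66 CPM in dosed livers and 1.96, 11.6, 1.51, 0.939 and 24.5 CPM in control livers. Control replicates 2 and 5 stood apart, and its log2 fold change of -1.74 was -0.79 without replicate 5. Gpr137b-ps, also a pseudogene, had 2.27, 4.21 and 9.42 CPM in dosed livers and 20.9985, 12.3, 9.47, 3.35 and 9.02 CPM in control livers. Its log2 fold change of -1.23 was -0.89 without control replicate 1 and -1.45 without replicate 4.

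At the edge of the rule, Irgm1, an interferon-induced GTPase, and Spp2, a phosphoprotein secreted by the liver, were just inside, with a largest unadjusted p among the doses of 0.04998 and 0.0492. Their log2 fold changes over all doses were 0.40 and 0.33. Just outside were Lpin1, a phosphatase of lipid synthesis (-0.69), and Mrpl46 of the mitochondrial ribosome (0.34), with 0.0507 and 0.0514. Mrpl46 had 0.22 without control replicate 2. Cyp7a1, which catalyses the rate-limiting step from cholesterol to bile acids, was not shifted alike: its log2 fold changes were 0.63, 0.82 and 1.75 from low to high dose, and its unadjusted p at 0.5 mg/kg was 0.140.

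Whether the level differed among the doses was tested in the 21 dosed mice without the controls. The rule used the levels of these same mice and favours genes alike across doses, so the counts among the shifted genes describe them and are no test of the rule. No gene passed (0 of 14415, 0%) in edgeR's quasi-likelihood F test, and 712 had an unadjusted p under 0.05 (4.94%), while DESeq2 called 2. Among the shifted genes the unadjusted p was under 0.05 in 1 of 50 higher and 2 of 56 lower ones, which are Kdsr (0.0414), Zbtb16 (0.00323) and Gpr137b-ps (0.0296), each with an adjusted p of 0.975. Mean Zbtb16 levels were 28.5 ± 15.6 CPM at 0 mg/kg (SD, n = 5), 18.7 ± 7.69 at 0.5 (n = 5), 14.4 ± 8.16 at 5 (n = 8) and 10.6 ± 5.11 at 50 mg/kg (n = 8). Neighbouring doses overlapped in range. Gpr137b-ps was lowest at 5 mg/kg, with a mean of 3.17 CPM against 5.96 at 0.5 and 5.13 at 50 mg/kg, and Kdsr was highest at 50 mg/kg. Of the 50 higher genes the largest effect was at 0.5 mg/kg in 23, at 5 in 10 and at 50 in 17, and of the 56 lower genes in 29, 16 and 11. Of all 14415 genes tested the largest effect was at 0.5 mg/kg in 5590, at 5 in 5224 and at 50 in 3601. The log2 fold changes moved stepwise from 0.5 to 50 mg/kg, in the direction of the pooled change, in 7 of the 50, 6 of the 56 and 1955 of all 14415 genes. This order uses signed values and does not ask for the same sign at all 3 doses.

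**Figure D3:**
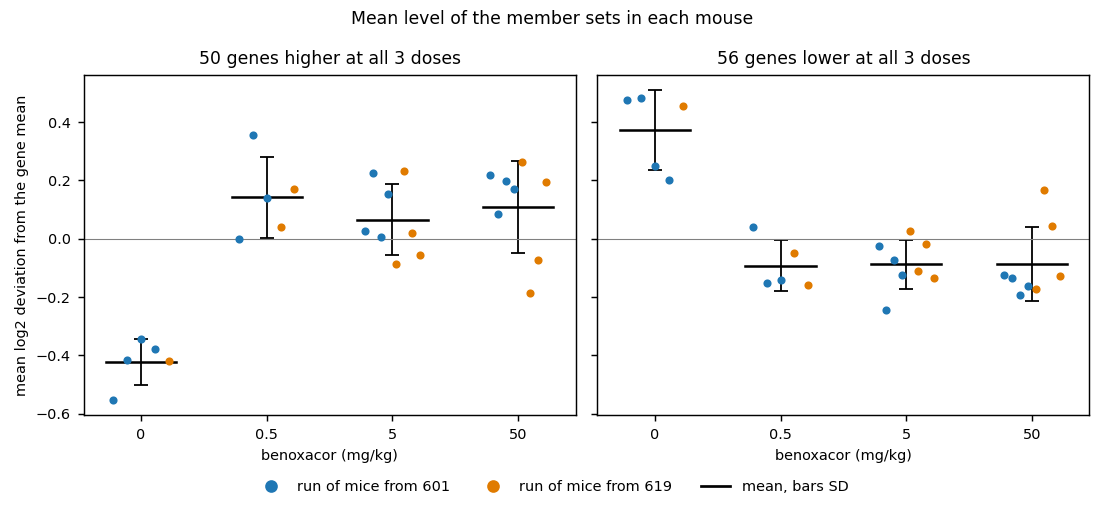
Mean level of the 50 higher genes (left) and the 56 lower genes (right) in each mouse, as the mean log2 deviation from each gene's mean over all mice (vertical axis), by benoxacor dose (mg/kg); points are mice coloured by run, lines are means and bars are SD. The 3 doses lie side by side and apart from 0 mg/kg, a gap that the choice of genes fixes.

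Averaged over each set, the dosed mice lay between -0.187 and 0.358 for the higher genes, and the controls between -0.551 and -0.344, on the scale of mean log2 deviations. For the lower genes the dosed mice lay between -0.244 and 0.168 and the controls between 0.201 and 0.483. The gap is set by how the genes were chosen. Within the dosed mice, 50 mg/kg replicate 6 lay nearest to the controls in both sets.

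Values within each run come from the same mice that chose the genes, and the run from 619 has 1 control, so they are a description. The sign was the same in all 50 higher, all 56 lower and 11335 of all 14415 genes within the run from 601, which holds 4 of the 5 controls. It was the same in 49 of 50, 53 of 56 and 9757 of 14415 within the other run. The test of a different effect in the 2 runs called 0 genes in edgeR (0%), with 1460 at an unadjusted p under 0.05 (10.1%), among them 3 of the 50 and 4 of the 56.

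The higher and lower genes differed in a feature that the rule did not use, the make-up of their transcripts. The longest transcripts of the 50 higher genes had a median GC content of 47.4% and a median length of 2246.5 bases. Those of the 56 lower genes had 54.6% and 4552.5 bases, and all genes tested 49.4% and 3072 bases. In transcripts above 44% and up to 48% GC lay 22 higher and 2 lower genes of 2938 tested. Above 56% lay 2 higher and 21 lower genes of 2373. Over all genes tested the share with a positive fold change was 61.0% above 44% and up to 48% GC, 44.5% above 56% and 38.5% at 40% or below, against 52.6% in all. By length it was 60.8% between 1024 and 2048 bases and 35.7% above 8192 bases.

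A dependence of read counts on GC content or length is a known property of sequencing libraries, so both were measured in each library. The slope of log2 level on GC content, in log2 units per 10 percentage points, was -0.275 to 0.158 in dosed mice and -0.225 to 0.202 in controls. The difference between dosed and control mice, adjusted for run, was -0.022 (exact two-sided permutation test over 15015 splits within runs, p = 0.758, adjusted over 6 library measures 0.774). The slope on length, per doubling, differed by -0.014 (exact permutation p = 0.337, adjusted 0.673). Each slope is a straight line, which cannot show a rise and fall over GC content like that of the positive share above. Within the mice from 601 on the difference in GC slope was -0.113 (exact permutation p = 0.131 over 1365 splits), while among those from 619 on the single control had -0.225 where the dosed mice had a mean of 0.048. With per-library offsets for both features, 104 genes were shifted alike, 65 higher and 39 lower in place of 50 and 56. All 106 genes kept their direction, which the choice of genes favours, and 61 of them, 33 higher and 28 lower, still met the rule. With the offsets the medians were 48.9% and 2310 bases for the higher and 51.6% and 3728 bases for the lower genes. The part of GC content and length in single genes' values was not tested.

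**Figure D4:**
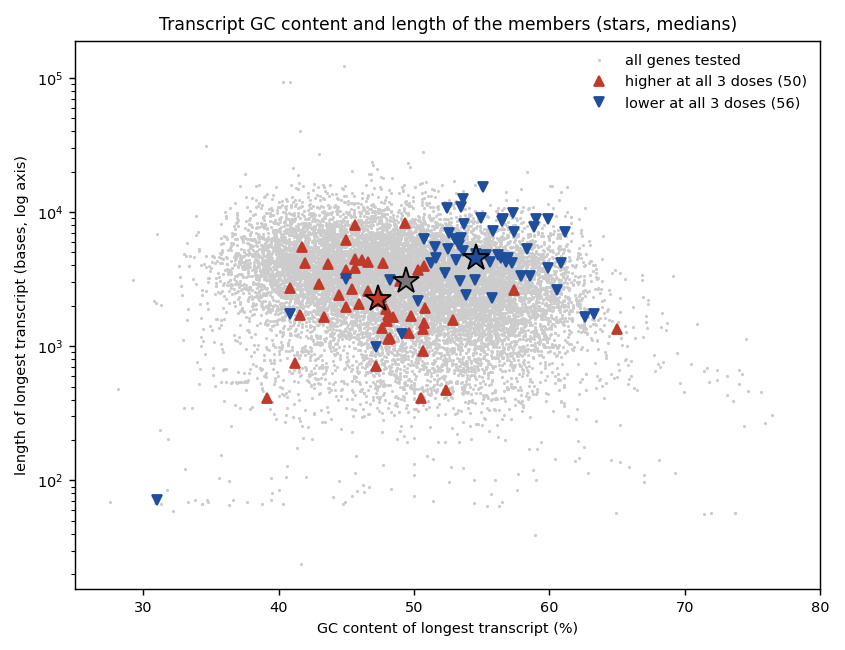
GC content (%, horizontal axis) and length (bases, log axis) of the longest transcript of each gene tested (grey), of the 50 higher genes (red triangles up) and of the 56 lower genes (blue triangles down); stars are the medians of the 3 sets. The lower genes sit towards higher GC and greater length, around 54.6% and 4552.5 bases, and the higher genes around 47.4% and 2246.5 bases.

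The genes of the pathways around these members were described by lists written with earlier results of these data known, beside 52.6% positive and a median of 0.012 over all genes tested. At an unadjusted p under 0.05, 3.40% of all genes tested were higher and 3.48% lower. No gene of any list passed over all genes. Of 24 CAR targets tested, 18 had a positive fold change with a median of 0.147, and 7 had an unadjusted p under 0.05, all positive. Their median was 0.103 without control replicate 1, 0.120 without replicate 2 and 0.380 without replicate 3. Without control replicate 5 it was 0.239, with 15 of 24 positive. They include Cyp2c54 (0.58), Cyp2c29 (0.55) and Cyp2c50 (0.45), P450s of a cluster of close copies, of which Cyp2c54 and Cyp2c50 had 0.93 and 0.70 without control replicate 5 and -0.30 and -0.23 in the run from 619. Of 19 PXR targets 12 were positive (median 0.115, 3 at an unadjusted p under 0.05), with the transporter Slco1a4 at 0.95, the P450 Cyp3a13 at 0.57 and the retinal dehydrogenase Aldh1a1 at 0.40. In the run from 619 Slco1a4 had 0.28, Cyp3a13 0.66 and Aldh1a1 0.16. The PXR median turned to -0.034 without control replicate 5, and was 0.303 without control replicate 3, 0.052 without control replicate 1 and 0.030 without the mouse with adrenal transcripts. Of 12 AhR targets 9 were positive (median 0.186, 1 at an unadjusted p under 0.05, the shifted gene Fmo2), and the quinone reductase Nqo1 had 0.41, which was 0.71 without control replicate 3 and 0.27 without replicate 5. The AhR median was 0.326 without control replicate 3 and 0.133 without replicate 1. Without control replicate 5 it was 0.130, with 8 of 12 positive.

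Among the conjugating and hydrolysing enzymes, 15 of 22 glutathione S-transferases were positive (median 0.128, with 4 higher and 1 lower at an unadjusted p under 0.05). Of all genes tested 3.40% were higher and 3.48% lower at that p. Gstz1 had 0.33 ± 0.12 and Gsta3 0.39 ± 0.16. Of the 22, 0 were shifted alike, beside 0.735% of all genes tested. At that share a list of 22 would seldom hold any, so the 0 is no result about the family. The median was 0.358 without control replicate 3 and 0.257 without control replicate 4, but 0.088 without replicate 1 and 0.087 without replicate 2. Carboxylesterases were positive in 11 of 14 (median 0.214, 2 higher), with Ces1b at 0.40 beside Ces1g. Glucuronosyltransferases were positive in 8 of 17 (median -0.057, 2 higher), and the NRF2 targets of the antioxidant response in 12 of 20 (median 0.011, none at that p). The sign of both medians turned with single controls. Without control replicate 5 the NRF2 targets had 6 of 20 positive and a median of -0.113, and without replicate 3 they had 16 of 20 and 0.204. The glucuronosyltransferase median was -0.167 without control replicate 4 and 0.022 without replicate 3. In bile acid synthesis and transport 14 of 22 were positive (median 0.090, 4 higher), with the bile acid transporters Slc10a1 at 0.36 and Slc51a at 0.37. Without control replicate 1 that list had 12 of 22 positive and a median of 0.020.

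Acute phase genes had the highest share of positive values among the pathway lists, 30 of 32, with a median of 0.455. At an unadjusted p under 0.05, 9 of them were higher, beside 3.40% of all genes tested. The medians at 0.5, 5 and 50 mg/kg were 0.877, 0.171 and 0.351, and without replicates 1 and 2 at 0.5 mg/kg, the mice with high Saa1, 26 of 32 were positive with a median of 0.221. Orm1, whose Orm copies may share reads, had 0.69 and 0.36 without those mice, and Mt2, a metallothionein that binds zinc, had 3.38 and 1.26. Of 33 interferon response genes 26 were positive (median 0.149, 5 higher at that p), among them Irgm1 (0.40), Ifit3 (0.70) and Irgm2 (0.54). In the run from 619 Irgm1 had 0.30, Ifit3 0.86 and Irgm2 0.12. Of 30 genes of the ER stress and integrated stress response 9 were positive (median -0.143, 1 higher and 4 lower at that p), and the list median was -0.025 without control replicate 1, -0.062 without replicate 3, -0.284 without replicate 5, -0.276 without 50 mg/kg replicate 4 and 0.306 in the run from 619. There Herpud1 (-0.52 over both runs) had 0.20, Sesn2 (-0.62) 0.065, Mthfd2 (-0.80) 0.64 and Atf5 (-0.52) 0.28. Sesn2 had -0.37 without control replicate 2 and Atf5 -0.23 without replicate 4.

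Glucocorticoid targets were positive in 9 of 21 (median -0.064, 4 higher and 2 lower at an unadjusted p under 0.05), with Zbtb16 and Fkbp5, a chaperone of the receptor (0.63), on opposite sides. Of all genes tested 3.40% were higher and 3.48% lower at that p. Fkbp5 had 0.22 in the run from 619. Without control replicate 2 the list turned to 14 of 21 positive with a median of 0.124, and the median was 0.018 without replicate 5 and -0.138 without replicate 1. Cdkn1a, a cell cycle inhibitor of the same list, had -1.15, and -0.26 without control replicate 4. Male-biased liver genes were positive in 8 of 30 (median -0.163, 1 lower) and female-biased ones in 7 of 9 tested (median 0.482, 2 higher). These lists were not alike across doses. At 0.5, 5 and 50 mg/kg the male-biased medians were 0.066, -0.380 and -0.098, and the female-biased ones 0.090, 0.821 and 0.365. The male-biased median was -0.061 without control replicate 5 and -0.108 without replicate 1. Among these genes Cspg5 had -0.78 (-0.48 without control replicate 3, 0.51 in the run from 619) and the urinary protein Mup20 -0.50, with close Mup copies. In the same form, cholesterol synthesis was positive in 17 of 24 (0.102, 1 higher, Pmvk at 0.54, with a median of 0.024 to 0.331 as single controls were left out), fatty acid synthesis in 13 of 19 (0.128, 1 lower, and -0.008 without the run term), PPAR-alpha targets in 20 of 30 (0.061, none) and gluconeogenesis in 9 of 17 (0.012, 1 lower). Heat shock genes were positive in 6 of 16 (-0.010, 1 lower), clock genes in 10 of 19 (0.017, 1 lower), cell cycle genes in 10 of 18 (0.045, none) and p53 targets in 6 of 18 (-0.081, 2 lower). These lists also moved with single mice. PPAR-alpha targets had 15 of 30 positive without control replicate 1 (median -0.007) or 5 (-0.015), and 26 of 30 without replicate 3 (0.217). Gluconeogenesis had 5 of 17 without control replicate 5 (-0.101), and a median of 0.070 without replicate 3. Clock genes had a median of -0.146 without control replicate 4 and 0.196 without replicate 2, and cell cycle genes had 6 of 18 and -0.127 without replicate 5. The p53 median was -0.022 without control replicate 2 and -0.150 without replicate 5. The heat shock median was -0.090 without control replicate 4 and 0.015 without 5 mg/kg replicate 1, and the fatty acid synthesis median was 0.049 without 50 mg/kg replicate 1.

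Markers of other cell types gave no list with more than 1 shifted gene, where 0.735% of all genes tested were shifted alike. Positive values were seen in 6 of 14 Kupffer cell and macrophage markers (median -0.036), 11 of 16 stellate cell and fibroblast markers (0.074), 2 of 4 cholangiocyte markers (0.031) and 3 of 6 erythroid markers (0.018). Few of the lymphocyte (5), neutrophil (2), adrenal (4) and pancreatic acinar (1) markers had enough reads to be tested, and their medians were -0.291, -0.058, 0.613 and 0.024. The pancreatic marker Amy2a5 was at 0 in all libraries. Without the mouse at 5 mg/kg with adrenal transcripts and replicate 6 of that dose, 100 genes were shifted alike.

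**Figure D5:**
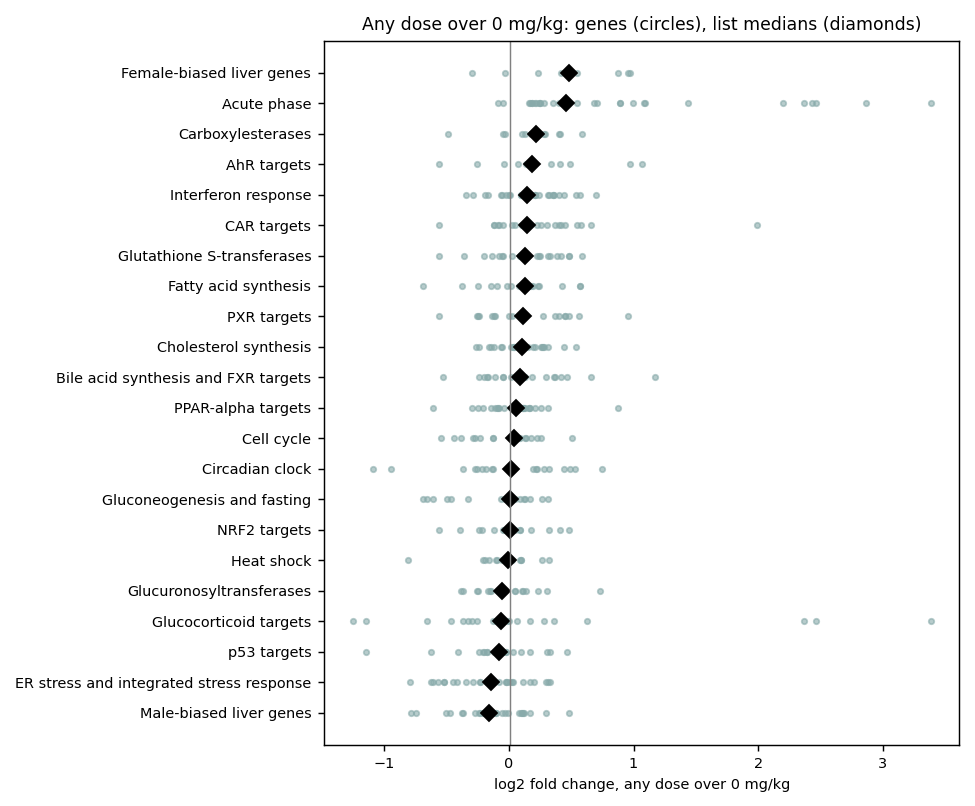
Log2 fold change of any dose over 0 mg/kg (horizontal axis) for the tested genes of 22 pathway lists; circles are genes, diamonds are list medians and the grey line is the median of all genes tested. The acute phase median of 0.455 and the median of 0.482 of the 9 female-biased genes lie farthest to the right, and the male-biased median of -0.163 farthest to the left.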

How the data were processed

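Liver RNA of 26 mice was measured. The deposited values are raw read counts per gene, not normalized. The mm10 build, featureCounts and bcl2fastq are named, per the submitters' processing notes. Versions, strand setting, annotation and aligner are not given in the sources used here, so genes that overlap or have near-identical copies are uncertain. RNA was extracted with a Qiagen kit, per the labels' protocols.

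The combined table of 54532 genes was used, and each of the 26 single-mouse files held its values. Groups came from the dose labels. Within doses, all 76 pairs of libraries differed by more than sampling noise (chi-square per degree of freedom 12.0 to 124). The p-values measure the spread between these mice. filterByExpr kept 14415 genes (98.5% to 99.8% of reads), scaled by TMM. edgeR 4.0.16 (R 4.3.3) fitted a robust quasi-likelihood model over all 26 mice with a term for any dose and one for the run of mouse numbers, with Benjamini-Hochberg adjustment over all genes tested at 0.05. Dose as a factor gave the genes shifted alike, and the 21 dosed mice the test among doses. The code was tested on simulated data. DESeq2 1.42.0, limma-voom (limma 3.58.1), other filters and scalings, single runs and leaving out each mouse were alternatives. GC and length offsets, from GENCODE M21 longest transcripts, were added after the data were seen.

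Named genes had a mean of at least 1 CPM: the 12 each way with the smallest p among the shifted genes, up to 4 of each list described, Zbtb16, Cyp2b10 and Cyp7a1, and 2 each side of the threshold. The members, the 22 pathway lists and the 10 cell type lists were chosen with earlier results of these data known. Coordinates are GENCODE M21 on mm10.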

Additional observations from a re-analysis of the deposited data

Results flagged for a closer look

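In 22 of 296 groups of 5 or 8 mice (74 named genes at 4 doses) 1 mouse stood apart from the rest of its dose by Dixon's test, where chance gives about 1 in 20, which is a share near the one seen. The mice are given with their CPM, and no cause was tested.

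Among the shifted genes, a mouse at 50 mg/kg, replicate 6, was high for Gfod1 (7.81), Ints1 (39.7) and Ep400 (69.7), which had lower levels in the other livers of that dose. At 50 mg/kg, replicate 7 was high for Cyp26c1 (2.32) and replicate 3 was low for Vars (22.5). Serpina3m was highest in 0.5 mg/kg replicate 2 (913). Control replicate 1 was high for Banp (19.7).

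Among the other named genes, 50 mg/kg replicate 6 was low for Gsta3 (971) and Ces1b (64.6), and 50 mg/kg replicate 8 was high for Cdkn1a (16.2). A mouse at 5 mg/kg, replicate 6, was high for Slco1a4 (102), Cyp3a13 (361), Nqo1 (9.03), Mt2 (137) and Ifit3 (24.98). At the same dose replicate 8, the library with adrenal transcripts, was high for Igfbp5 (53.3). At 0.5 mg/kg, replicate 2 was high for Cyp3a13 (464) and low for Ube2o (11.7), replicate 4 was high for Aldh1a1 (1490) and replicate 1 was low for Slc10a1 (225). Control replicate 2 was low for Mrpl46 (13.2) and Fkbp5 (19.5).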

How the results depend on the processing

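The count of genes called for any dose, 0 in edgeR's quasi-likelihood test, was 9 with DESeq2, 3 in the run from 601 alone, 1 without 0.5 mg/kg mice 1 and 2 and 1 with equal weight for each dose, and it stayed at 0 as each mouse was left out. The count for differences among the 3 doses was 2 with DESeq2 and 0 as each mouse was left out. The count shifted alike, 106 (50 higher and 56 lower), was 215 (101 and 114) in the run from 619 with its 1 control, 161 (74 and 87) without 0.5 mg/kg mice 1 and 2, and 20 (10 and 10) at an unadjusted p under 0.01 at each dose. As each mouse was left out it lay between 74 and 206, with 34 to 96 higher and 39 to 110 lower. The largest of these counts, 206, came without control replicate 5, when 65 of the 106 genes were kept. Without control replicate 3 there were 87 higher genes and without control replicate 4 there were 76. Without control replicate 1, 51 of the 106 were kept. With no filter on low counts 149 genes were shifted alike, with DESeq2 135 and with no run term 129 (72 higher and 57 lower). All 106 genes kept their direction in every one of these fits to both runs, and 102 of 106 did in the run from 619 alone, beside 9757 of all 14415 genes tested. The rule chose the 106 for 1 direction in these same mice, so the kept directions follow from that choice and support nothing. The causes of these shifts were not tested.

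In the run from 619 alone these named genes turned direction: 1700028E10Rik (-0.11), Cyp2c54 (-0.30), Cyp2c50 (-0.23), Herpud1 (0.20), Sesn2 (0.065), Mthfd2 (0.64), Atf5 (0.28), Cspg5 (0.51) and Mars (0.10). No paired analysis was possible because the labels give each mouse its own number and no number is shared between doses. With 5 controls, the median standard error of a log2 fold change was 0.17 for any dose. Shifts several times their own standard error were still not called in edgeR's quasi-likelihood test over both runs. Zbtb16 had -1.25 ± 0.25 (adjusted p = 0.307) and Hamp had 1.08 ± 0.27 (adjusted p = 0.459). In a gene with the median standard error, shifts of several times 0.17 could therefore also go uncalled at this depth and number of mice.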
